A study of Mus musculus with 15 samples.

Results

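Type I interferon response genes were described here as 37 genes, given by symbol, out of 55486 genes in a table of read counts. All 37 were in the table, and all 37 passed the filter on low counts that left 14843 genes for testing. The 15 libraries were bulk RNA-seq of macrophages sorted by flow cytometry from mouse brain tumours. All animals shared the label Ink4a/ArfKO, PDGFB, a glioma model in which the growth factor PDGFB is enforced in Nestin-positive progenitor cells of mice without Ink4a/Arf. There were 4 libraries of microglia (MG), the resident macrophages of the brain, 4 of lipid-laden microglia, 4 of macrophages that derive from blood monocytes (MDM) and 3 of lipid-laden MDM. No group was free of tumour. The stain or gate for lipid, the age of the animals and any pooling are stated in no source used. Libraries carry the numbers 221, 224, 431 and 718 in their titles, and for lipid-laden MDM number 431 was not analysed here. Nothing states that the libraries of a group came from separate animals, so p-values measure the spread between these libraries, which may be technical.

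Type I interferons are secreted proteins that cells make when their sensors meet viral or misplaced nucleic acid, and in the brain microglia are one of their known sources. They bind the receptor of IFNAR1 and IFNAR2, and the kinases JAK1 and TYK2 then activate STAT proteins, which join IRF9 and bind the interferon-stimulated response element (ISRE) in promoters. The genes turned on this way limit infection, present antigen and feed back on the pathway, and many of them are also expressed at a lower level without infection.

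The ISRE is the promoter sequence through which this pathway acts, so promoter stretches of 6 members are shown first. Promoters came from a RefSeq table (build GRCm38.p6) and ran from 250 bases before to 50 bases after a transcript start. Of the 37 genes, 27 had an entry, with 34 promoters among them. The ISRE core was searched on either strand as GAAA, any 2 bases and GAAA again (TTTC, any 2 bases and TTTC on the other strand), and overlapping matches were counted. It was found for 14 of 27 members (51.9%), against 3.94% of the 10901 tested genes that had a promoter in the table. A longer form, the core followed by CT, was found for 7 of 27 members (25.9%) and 0.45% of the tested genes. The GAS-type motif TTCNNNGAA, which can share bases with an ISRE match, as in Ifitm3, was found for 10 of 27 members and 8.2% of the tested genes. Members with the ISRE core were Stat2, Isg15, Ifit1, Ifit3, Oas1a, Oas3, Rsad2, Bst2, Trim30a, Ifitm2, Ifitm3, Ddx58, Ifih1 and Eif2ak2. The stretches below run from 150 bases before to 30 bases after the RefSeq start, 5′ to 3′ on the strand of the gene, with core matches in capitals. Isg15 and Ifit1 stand for members with clear matches, and the 4 Ifitm genes are shown because all 4 differed between MDM and microglia, 3 of them by more than any other member.
Isg15 (chr4:156200789-156200968, minus strand): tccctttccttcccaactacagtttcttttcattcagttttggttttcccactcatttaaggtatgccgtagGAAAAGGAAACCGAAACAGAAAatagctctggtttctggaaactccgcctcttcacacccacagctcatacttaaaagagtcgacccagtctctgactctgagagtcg
Ifit1 (chr19:34640739-34640918, plus strand): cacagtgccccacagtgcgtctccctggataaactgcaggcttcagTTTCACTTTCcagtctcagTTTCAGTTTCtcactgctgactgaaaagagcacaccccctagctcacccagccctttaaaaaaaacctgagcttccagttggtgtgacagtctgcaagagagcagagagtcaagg
Ifitm3 (chr7:141010715-141010894, minus strand): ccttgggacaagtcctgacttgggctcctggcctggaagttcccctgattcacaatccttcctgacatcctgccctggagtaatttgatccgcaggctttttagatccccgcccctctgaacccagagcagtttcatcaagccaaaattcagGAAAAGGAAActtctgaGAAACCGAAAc
Ifitm2 (chr7:140955932-140956111, minus strand): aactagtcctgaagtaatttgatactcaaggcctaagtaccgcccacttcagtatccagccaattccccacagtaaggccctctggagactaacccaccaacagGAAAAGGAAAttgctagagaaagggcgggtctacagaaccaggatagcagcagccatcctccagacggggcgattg
Ifitm1 (chr7:140967926-140968105, plus strand): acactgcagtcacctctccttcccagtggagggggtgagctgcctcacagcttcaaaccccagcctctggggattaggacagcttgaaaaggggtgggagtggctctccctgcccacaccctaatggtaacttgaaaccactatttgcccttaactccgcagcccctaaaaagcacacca
Ifitm6 (chr7:141016863-141017042, minus strand): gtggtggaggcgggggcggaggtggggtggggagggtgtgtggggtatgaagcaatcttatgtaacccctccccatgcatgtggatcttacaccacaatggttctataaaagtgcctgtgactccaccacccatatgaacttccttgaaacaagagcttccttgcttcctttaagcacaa
Isg15 held 3 overlapping matches, Ifit1 held 2 on the other strand, Ifitm3 held 2 just after the start and Ifitm2 held 1 before it. No match lay in the windows of Ifitm1 and Ifitm6, which says only that these letters are not there. The full windows of these 2 genes lay inside the gene: 140967826 to 140968125 for Ifitm1, which spans 140967221 to 140969825, and 141016843 to 141017142 for Ifitm6, which spans 141015699 to 141017924. Those of Ifitm2 and Ifitm3 reached past the 5′ end of the gene. The 4 windows are thus unlike in place, and the 5′ ends of Ifitm1 and Ifitm6 were not searched. A match describes the letters, not a site in use.

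Total counts were 7842531 to 9658143 per library in microglia, 8962885 to 9797627 in lipid-laden microglia, 7798952 to 11419338 in MDM and 9306839 to 10699235 in lipid-laden MDM. The labels were checked against 10 markers of each cell type. Summed microglia markers reached 10309.5 to 16352 CPM (counts scaled to the size of the library) in microglia, 6977 to 18029 in lipid-laden microglia and 2243 to 3871 in MDM. In lipid-laden MDM they stood at 7163 to 10246 CPM, which overlaps the lipid-laden microglia. Summed MDM markers were at 303 to 494 CPM in microglia, 359 to 892 CPM in lipid-laden microglia, 3545 to 4022 CPM in MDM and 1561 to 1834 CPM in lipid-laden MDM. The libraries numbered 221 had the lowest microglia sum of their group in all 4 groups, so counts without that number are given beside each main count.

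Most members were at their highest in MDM. The group mean was highest in MDM for 31 of 37 genes, in lipid-laden MDM for 3, in lipid-laden microglia for 2 and in microglia for 1. For 31 of 37 genes the mean of lipid-laden MDM lay between those of microglia and MDM. These orders of means were not counted over all genes, so they are not shown to be particular to the members. Per kilobase of exon, the scale on which levels of different genes can be compared, the members of highest level in MDM were Ifitm3 at 1394 CPM per kilobase, Ifitm1 at 751, Ifi27l2a at 452 and Bst2 at 334. In microglia Ifitm3 (396), Ifi27l2a (372) and Bst2 (273) were high on this scale as well, while Ifitm1 was at 9.54 CPM per kilobase. The lowest levels in MDM were those of Mx2 (4.98) and Adar (5.53).

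**Figure D1:**
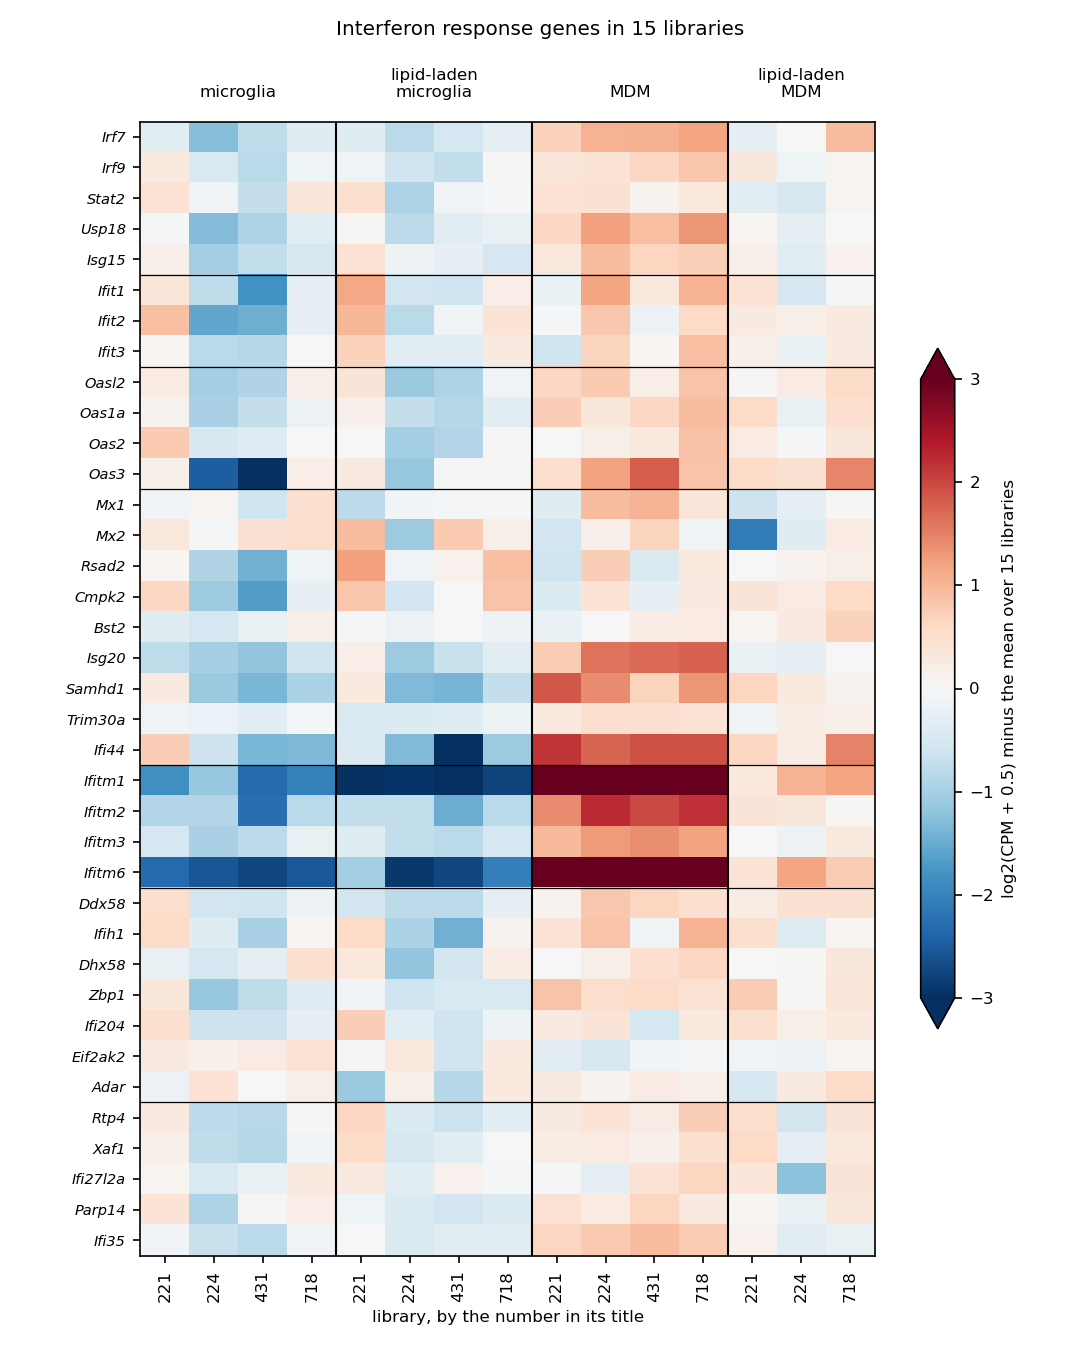
Level of each of the 37 genes (rows, grouped by role) in each of the 15 libraries (columns, by group and number), as log2(CPM + 0.5) minus the mean of that gene over all libraries. The rows of Ifitm1 and Ifitm6 are darkest red in the 4 MDM libraries and the rows of Ifi44, Ifitm2 and Isg20 follow, and in the microglial groups the libraries numbered 221 and 718 are redder than those numbered 224 and 431 in most rows.

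MDM and microglia without lipid load were compared first, which gives the difference of origin. Of the 37 genes, 15 were higher in MDM and 0 were lower (edgeR quasi-likelihood test over all 14843 genes, Benjamini-Hochberg adjusted p under 0.05). Among all genes tested 23.2% were called, 10.7% higher and 12.5% lower. The log2 fold change was above 0 for 35 of 37 members, with a median of 0.69, against 43.8% of all genes and a median of -0.12. Every MDM library was above every microglial library for 16 members, against 13.8% of all genes, and below for 1, Eif2ak2, against 14.8%. Without the 4 IFITM genes, 11 of 33 members were higher and the median was 0.65. Without the libraries of number 221, 22 members were called.

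Among the transcription factors and signalling genes, 4 of 5 were higher in MDM. Irf7, the factor that amplifies interferon production, stood at 180.1, 92.7, 133 and 174 CPM in microglial libraries 221, 224, 431 and 718, the order used throughout. In MDM it stood at 365, 461, 471 and 512 CPM, all above microglia (log2 fold change 1.64, SE 0.26, adjusted p = 0.000251). Usp18, which removes ISG15 from proteins and damps signalling at the receptor, was at 138, 58.2, 74.6 and 116 CPM in microglia and 219, 337, 269 and 362 CPM in MDM (1.62, SE 0.26, adjusted p = 0.000295). Isg15, the ubiquitin-like modifier that is joined to proteins during the response, was at 49.6, 21.4, 26.8 and 31.99 CPM in microglia and 55.7, 85.1, 70.3 and 73.6 CPM in MDM. Its lowest MDM library, number 221, was nearest to the highest microglial library, also number 221 (1.13, SE 0.27, adjusted p = 0.00615). Irf9, a DNA-binding partner of STAT2, was at 175, 102, 81.3 and 129.7 CPM in microglia and 182, 187, 218 and 253 CPM in MDM (0.78, SE 0.23, adjusted p = 0.0217). That call was lost without microglial library 224 (adjusted p = 0.0592), microglial library 431 (0.0579) or MDM library 718 (0.0668). Isg15 was not called without all libraries of number 224 (0.0773) or of number 718 (0.0580). Stat2 did not pass the test, at 76.4 ± 25.3 CPM in microglia and 92.4 ± 10.1 CPM in MDM (SD, n = 4 each; adjusted p = 0.526).

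The 4 IFITM genes encode small membrane proteins, of which Ifitm3 is known to hold back viruses at the endosome, and all 4 were higher in MDM. Those of Ifitm6, Ifitm1 and Ifitm2 were the largest log2 fold changes of the 37, and that of Ifitm3 was below those of Isg20, Ifi44 and Samhd1. The 4 genes lie close together on chromosome 7 and are alike in sequence, so reads shared between them could have been split by the counting. Ifitm1 (ENSMUSG00000025491, chromosome 7, 140967221 to 140969825) was at 9.82, 16.5, 6.898 and 8.597 CPM in microglia and 509.97, 863, 1083 and 831 CPM in MDM, 78.4-fold higher (log2 fold change 6.29, SE 0.37, adjusted p = 7.33e-08). Ifitm6 (ENSMUSG00000059108, chromosome 7, 141015699 to 141017924) was nearly silent in microglia, with 7 to 12 counts per library, or 1.24, 0.968, 0.818 and 1.01 CPM. In MDM it stood at 103, 230.3, 134 and 170.4 CPM (log2 fold change 7.28, SE 0.50, adjusted p = 1.82e-07). The 2 genes thus separated the origins with no overlap in any library. Ifitm2 (ENSMUSG00000060591, chromosome 7, 140954837 to 140955987) was at 7.75, 7.85, 2.69 and 8.22 CPM in microglia and 40.2, 72.00, 59.98 and 69.7 CPM in MDM (3.19, SE 0.35, adjusted p = 1.06e-05). Ifitm3 (ENSMUSG00000025492, chromosome 7, 141009586 to 141010770) was already at 284, 206, 237 and 346 CPM in microglia and stood at 799, 978, 1071 and 933 CPM in MDM, 3.52-fold (1.82, SE 0.17, adjusted p = 2.87e-06).

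**Figure D2:**
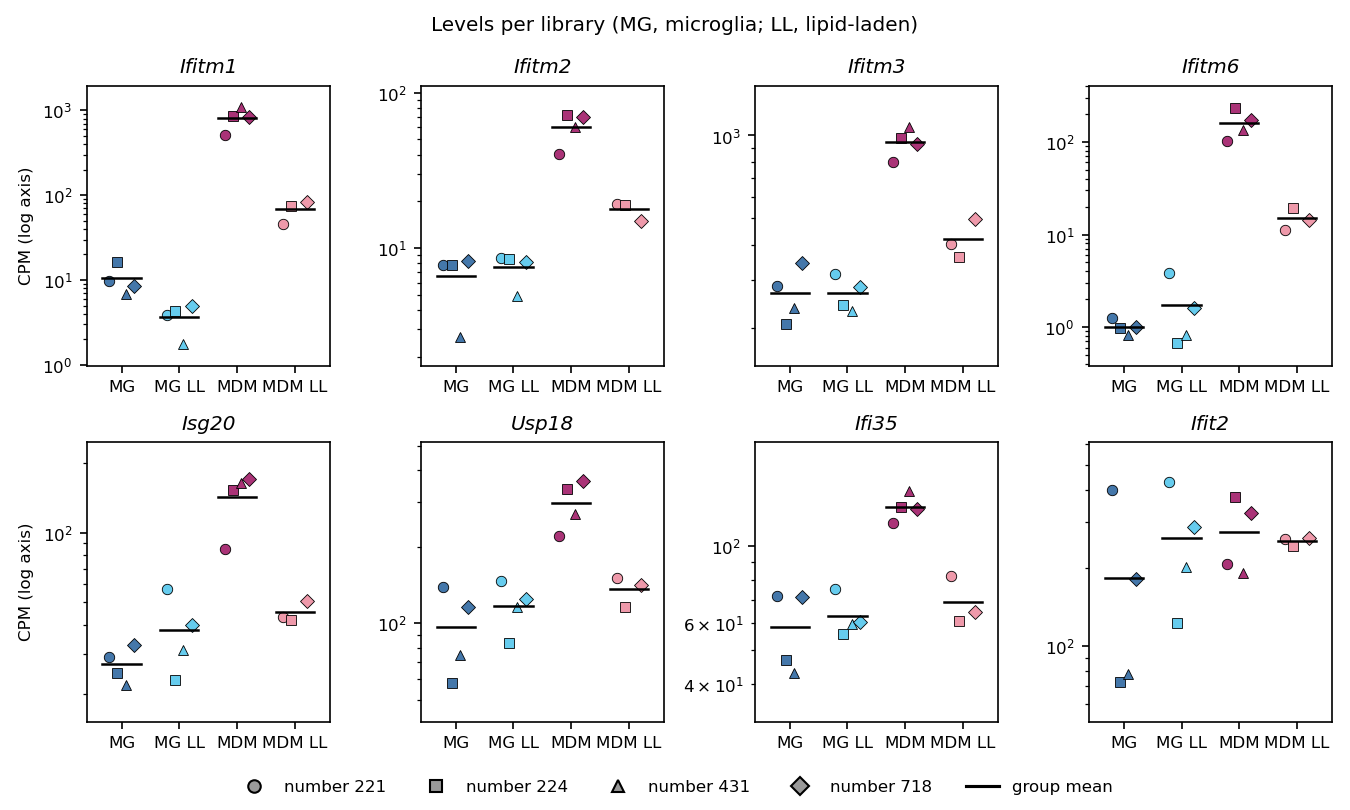
CPM per library on a log axis for 8 members (panels) in the 4 groups, with the shape of each point giving the library number and the line the group mean. Ifitm1, Ifitm2, Ifitm3, Ifitm6, Isg20, Usp18 and Ifi35 are high in the 4 MDM libraries and lower in all 3 lipid-laden MDM libraries, while the groups of Ifit2 overlap.

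Of 9 Mx GTPases and other effectors, 4 were higher in MDM. Isg20, an exonuclease that degrades RNA, was at 29.04, 24.7, 21.9 and 32.6 CPM in microglia and 84.9, 154, 164 and 171 CPM in MDM, where library 221 was the lowest (2.41, SE 0.28, adjusted p = 1.64e-05). Samhd1, which breaks down the nucleotides needed for reverse transcription, was at 253, 96.98, 80.3 and 108 CPM in microglia and 760.5, 566, 334 and 524 CPM in MDM (2.02, SE 0.41, adjusted p = 0.00213). Library 221 was the highest for Samhd1 in both groups. Trim30a changed least among the called genes, from 198, 188, 166 and 208 CPM to 260.2, 293, 301 and 285 CPM, with a narrow spread (0.59, SE 0.12, adjusted p = 0.00245). Ifi44 was at 19.3, 7.31, 4.09 and 4.17 CPM in microglia and 52.1, 39.9, 44.2 and 44.6 CPM in MDM (2.37, SE 0.75, adjusted p = 0.0324). The call of Ifi44 was lost when any 1 of 7 of the 8 libraries was left out, with an adjusted p of up to 0.0854 without microglial library 718; only without microglial library 221 was it kept. Bst2, a tether that holds budding virus at the cell surface and the member of this group with the highest level per kilobase, did not pass the test. Its values were 224, 199, 244 and 319 CPM in microglia and 251, 282, 333 and 341 CPM in MDM (0.29, SE 0.17, adjusted p = 0.226). Mx1, Mx2, Rsad2 and Cmpk2 did not pass either, with log2 fold changes of 0.56, -0.23, 0.60 and 0.38.

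None of the 3 IFIT genes, which bind foreign RNA and block its translation, passed the test. Ifit1 was at 203, 92.9, 44.1 and 133 CPM in microglia and 137, 359, 195 and 323 CPM in MDM (1.10, SE 0.46, adjusted p = 0.0962). Ifit3 was at 149, 82.6, 79.1 and 145 CPM and 94.3, 230.4, 150.03 and 271 CPM in the same groups (0.71, SE 0.32, adjusted p = 0.123). Ifit2 spanned 400.4, 72.5, 78.2 and 181 CPM in microglia, a range wider than that of MDM at 208, 376, 191 and 327 CPM. Reads of the IFIT genes may be shared with their close relatives. In these genes the order of the numbers turned over: library 221 was the highest microglial library, and 224 the highest or second-highest MDM library.

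Of 4 genes of the 2-5 oligoadenylate synthetase family, which make the messenger that activates RNase L, or are related to it in sequence, 1 was higher. Oas1a was at 119, 56.6, 67.5 and 98.4 CPM in microglia and 186, 142, 171 and 212 CPM in MDM (1.06, SE 0.27, adjusted p = 0.00919), and was not called without number 718 (0.0762). Oas3 was at 20.98, 3.01, 0.818 and 21.9 CPM and 26.9, 44.2, 68.4 and 34.6 CPM, without overlap but above the threshold (1.90, SE 0.69, adjusted p = 0.0586). Oasl2 was at 115, 46.9, 50.9 and 107 CPM and 149, 167, 110.1 and 175 CPM (0.91, SE 0.34, adjusted p = 0.0652), and Oas2 had a log2 fold change of 0.31. These paralogues too may share reads. Microglial library 221 bore on several of these genes: without it 21 members were called, among them Oas3 (adjusted p = 0.0383), Oasl2 (0.0331), Ifit1 (0.0347) and Xaf1 (0.0400). Oas3 also passed without microglial library 718 (0.0410).

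Among 7 sensors of RNA and DNA, 1 was higher. Zbp1, which binds Z-form nucleic acid and can start cell death, was at 98.2, 34.8, 45.01 and 58.8 CPM in microglia and 139, 111, 115 and 104 CPM in MDM (0.99, SE 0.26, adjusted p = 0.0133). Its call was lost without number 224 (0.0705), 431 (0.0705) or 718 (0.0840). Ifi204, a DNA sensor, was at 248, 115, 116 and 149.8 CPM and 214, 231, 123 and 217 CPM, with MDM library 431 low (0.32, SE 0.30, adjusted p = 0.492). Ifih1, the sensor MDA5 of long double-stranded RNA, was at 135, 70.6, 46.3 and 94.95 CPM and 120.5, 165, 84.97 and 189 CPM (0.69, SE 0.41, adjusted p = 0.251). The groups of Ifi204 and Ifih1 overlapped. Ddx58 (the sensor RIG-I), Dhx58 and Adar, the enzyme that edits double-stranded RNA, had log2 fold changes of 0.65, 0.44 and 0.07 and were not called. Eif2ak2, the kinase PKR that stops translation, had one below 0 (-0.50, SE 0.19, adjusted p = 0.0750).

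Of the 5 remaining members, Ifi35 was higher in MDM. It stood at 71.6, 46.9, 42.9 and 71.4 CPM in microglia and 117, 130.1, 144 and 128 CPM in MDM (1.16, SE 0.19, adjusted p = 0.000367). Ifi27l2a was at 189, 128, 153 and 219 CPM and 171, 148, 239 and 279.7 CPM, with overlap (0.28, SE 0.30, adjusted p = 0.555). Rtp4 was at 181, 85.8, 83.5 and 153 CPM and 180.4, 197, 178 and 248 CPM (adjusted p = 0.140). For Xaf1 the values were 99.7, 52.5, 48.99 and 83.4 CPM and 104, 106, 99.1 and 125 CPM (adjusted p = 0.112). Parp14, an ADP-ribosyltransferase, had a log2 fold change of 0.39. In both Rtp4 and Xaf1 it was microglial library 221 that reached into the range of MDM.

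**Figure D3:**
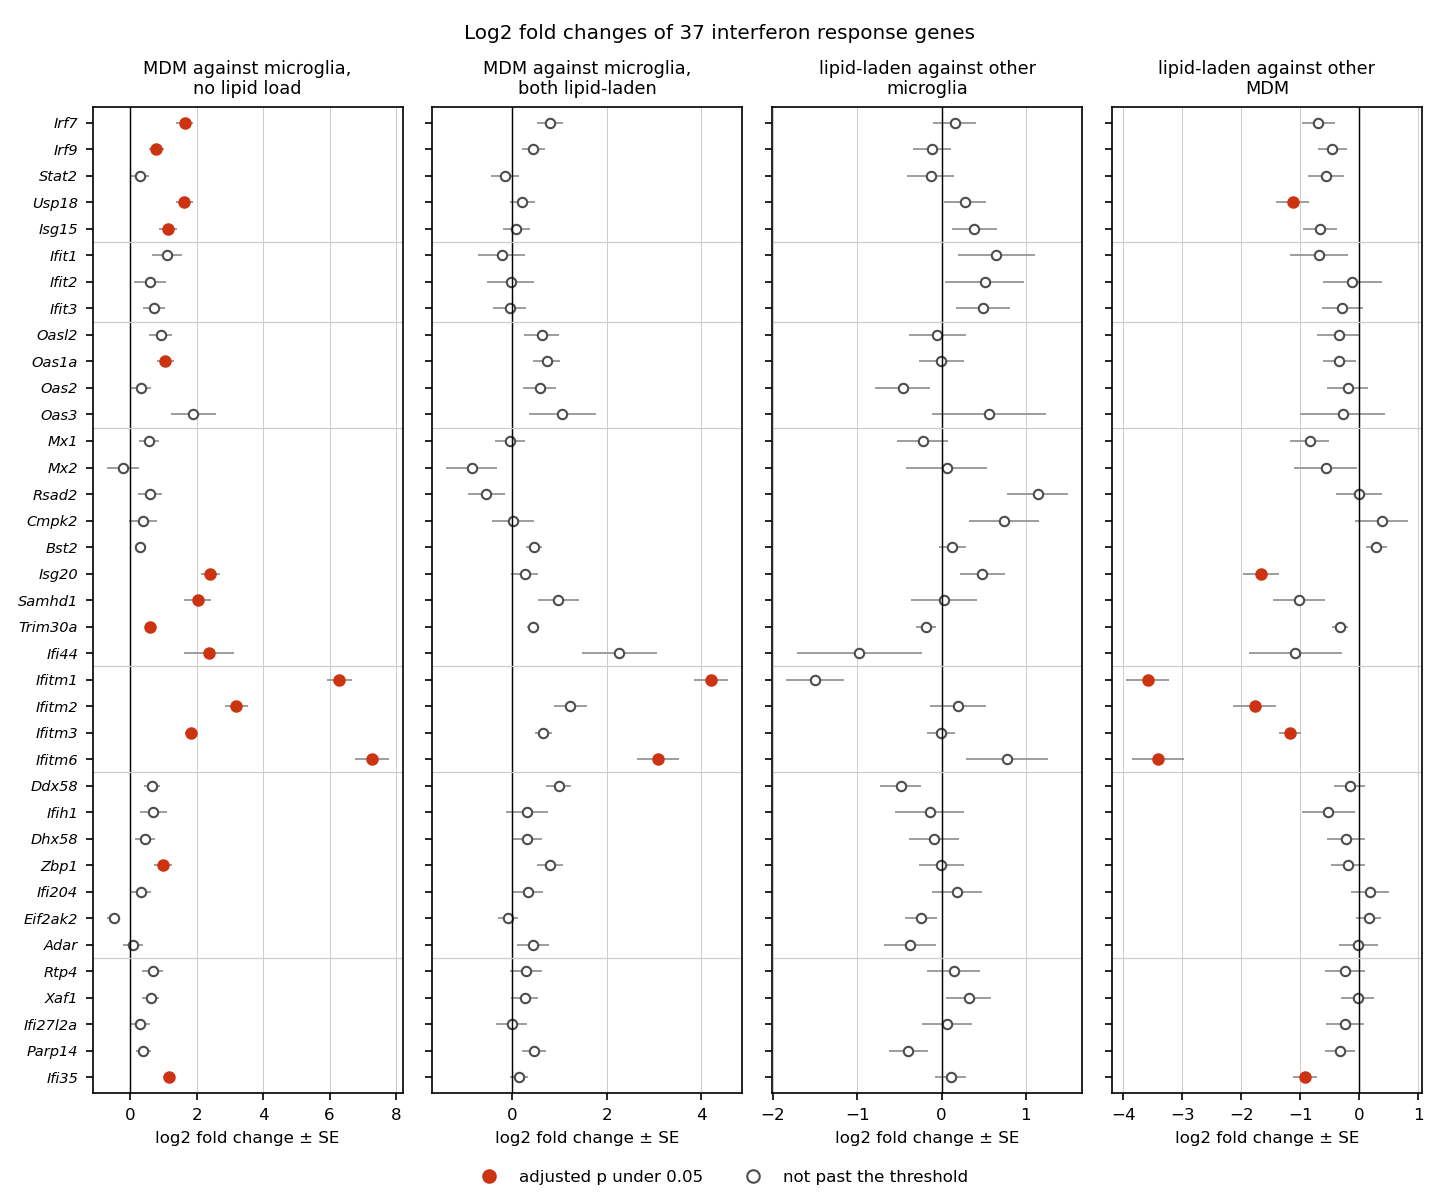
Log2 fold change with its standard error (bars) for each of the 37 genes in 4 comparisons, filled where the edgeR adjusted p was under 0.05. In the panels from left to right 15, 2, 0 and 7 genes are filled, and the axes differ in range.

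Markers of other cells moved with this difference. Summed conventional dendritic cell markers were at 33.1 to 58.6 CPM in microglia and 1232 to 2758 CPM in MDM, and in lipid-laden MDM at 187 to 248 CPM, with all 10 detected in both MDM groups. T and NK cell markers summed to 1.17 to 10.4 CPM in microglia, 31.5 to 178 CPM in MDM and 47.2 to 111 CPM in lipid-laden MDM. Plasmacytoid dendritic cell markers, those of the cells best known for making type I interferon, gave sums of 237 to 288, 209.5 to 272, 229.97 to 322 and 184 to 243 CPM in microglia, lipid-laden microglia, MDM and lipid-laden MDM. Of 8 tested, 3 were called higher in MDM than in microglia and 1 lower, against 10.7% and 12.5% of all genes, with a median log2 fold change of 3.16. Counts were found for 6 of the 10 in microglia and for all 10 in MDM. Neutrophil markers summed to 229 to 328 CPM in microglia and 109.9 to 169 CPM in MDM, with 1 of 7 tested markers called higher and 1 lower, and Ly6g and Camp at 0 in all groups. Glioma and progenitor cell markers summed to 144 to 412 CPM in microglia and 20.1 to 33.4 CPM in MDM, with 9 of 10 called lower. The part of these other cells in the differences of the 37 genes was not tested. In bulk libraries a larger share of cells that express a gene and more of its RNA per cell cannot be told apart.

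With lipid load in both, 2 of 37 members were higher in MDM than in microglia and 0 lower, where 2.78% of all genes were called, 2.2% higher and 0.579% lower. Both were IFITM genes. Ifitm1 was at 3.82, 4.34, 1.75 and 4.88 CPM in the lipid-laden microglia, and at 45.5, 75.4 and 84.00 CPM in lipid-laden MDM libraries 221, 224 and 718 (18.4-fold, log2 fold change 4.20, SE 0.36, adjusted p = 1.96e-05). Ifitm6 was at 3.82, 0.668, 0.824 and 1.63 CPM and 11.1, 19.3 and 14.5 CPM (3.09, SE 0.44, adjusted p = 0.00102), and its call was lost when only the groups compared were fitted (adjusted p = 0.0770). The log2 fold change was above 0 for 28 of 37 members, against 47.5% of all genes, with a median of 0.32 against -0.03. The groups did not overlap for 10 members, all higher in MDM, where 7.35% of all genes did not overlap and were higher and 5.17% lower. Without number 221, 4 members were called.

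The library numbers were taken to pair these lipid-laden samples. With the replicate number as a block 6 members were higher in MDM and 0 lower, where 3.83% of all genes were called, 2.84% higher and 0.99% lower. The others were Ifitm3 at 315, 243, 231 and 282 CPM in lipid-laden microglia and 403, 364 and 497 CPM in lipid-laden MDM (log2 fold change 0.63 with the block, adjusted p = 0.0471, and 0.0644 without it), Samhd1 at 258, 83.4, 79.3 and 128 and 327, 258 and 225 CPM (0.92, adjusted p = 0.0235, and 0.292 without it), Oas1a at 123, 67.8, 61.3 and 88.8 and 166, 97.6 and 159 CPM (0.65, adjusted p = 0.0353, and 0.229 without it) and Zbp1 at 73.4, 51.02, 55.8 and 56.4 and 130.1, 79.6 and 99.1 CPM (0.74, adjusted p = 0.0491, and 0.173 without it). Each was higher in MDM in 3 of 3 pairs. The 3 IFIT genes had log2 fold changes of -0.23, -0.04 and -0.06 and were not called.

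Lipid-laden microglia were then compared with the other microglia. No member was called, nor was any of all genes tested (0%), with 2 of 37 members and 9.21% of all genes at an unadjusted p under 0.05. Of the members 20 had a log2 fold change above 0, against 47.6% of all genes, with a median of 0.06. The groups did not overlap for 1 member, lower with lipid load, and for 0 higher, against 2.81% and 2.65% of all genes. With the replicate block, used here since the numbers were taken to pair these samples, 0 members and 119 of all genes (0.802%) passed. DESeq2 called 2 members, Ifitm1 lower and Rsad2 higher. Without number 221 edgeR called 0.

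The 3 members with the smallest p were Ifitm1, Rsad2 and Ddx58. Ifitm1 was at 9.82, 16.5, 6.898 and 8.597 CPM in microglia and 3.82, 4.34, 1.75 and 4.88 CPM with lipid load, without overlap and lower in 4 of 4 pairs (-1.5, SE 0.34, adjusted p = 0.146). Rsad2, the enzyme viperin that makes a chain-terminating nucleotide, was at 158, 80.6, 55.5 and 138 CPM and, with lipid load, 356, 142, 168 and 287 CPM, higher in 4 of 4 pairs (1.14, SE 0.36, adjusted p = 0.349). Ddx58 was at 74.5, 35.1, 34.02 and 46.3 CPM and 34.7, 29.9, 29.6 and 41.7 CPM (-0.48, SE 0.24, adjusted p = 0.568). Only Ifitm1 separated the groups. The 3 IFIT genes were each higher with lipid load in 4 of 4 pairs, by log2 fold changes of 0.65 (SE 0.46) for Ifit1, 0.51 (SE 0.47) for Ifit2 and 0.49 (SE 0.32) for Ifit3, and none passed the test. Cmpk2, the neighbour of Rsad2 on chromosome 12, which was picked out after its values were seen, went the same way in 4 of 4 pairs (0.74, SE 0.42, adjusted p = 0.627).

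Other members higher in MDM than in microglia were not called with lipid load in microglia. Irf7 was at 176, 129, 155 and 185 CPM in the lipid-laden libraries, Isg15 at 61.1, 40.3, 37.5 and 31.2 CPM and Irf9 at 129, 94.1, 84.2 and 145 CPM. Ifitm2 was at 8.64, 8.58, 4.94 and 8.13 CPM, with library 431 the lowest as in the other microglia. Ifi35 was at 75.02, 55.9, 59.5 and 60.3 CPM, Trim30a at 154, 159, 165 and 189.5 CPM and Ifi44 at 8.44, 4.23, 0 and 5.08 CPM, with no count in library 431. For each of these 7 genes the range overlapped that of the other microglia.

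In MDM, lipid load came with lower levels. Of the 37 members 7 fell and 0 rose, where 8.17% of all genes were called, 2.96% lower and 5.21% higher. The log2 fold change was below 0 for 33 of 37 members and above 0 for 4, against 52.2% of all genes above 0, and its median was -0.33 against 0.04. Every lipid-laden library was below every other MDM library for 13 members, against 10.7% of all genes, and above for 0, against 11.1%. Without the IFITM genes, 3 of 33 members fell and 29 had a log2 fold change below 0. The same 4 MDM libraries enter this comparison and the one with microglia, so the 2 sets of values are not independent. Without number 221 the count was 7 again, but it was 4 without number 224 and 3 without number 718.

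All 4 IFITM genes fell. Ifitm1 dropped from 509.97, 863, 1083 and 831 CPM to 45.5, 75.4 and 84.00 CPM, 12.03-fold (log2 fold change -3.59, SE 0.37, adjusted p = 5.73e-05). Ifitm6 dropped from 103, 230.3, 134 and 170.4 CPM to 11.1, 19.3 and 14.5 CPM, 10.7-fold (-3.41, SE 0.45, adjusted p = 0.000266). Both stayed above every microglial library, as the comparison of the lipid-laden groups above also shows. Ifitm2 went from 40.2, 72.00, 59.98 and 69.7 CPM to 19.3, 18.9 and 15.02 CPM (-1.77, SE 0.36, adjusted p = 0.00684), and was not called without number 224 (0.0975) or 718 (0.160). Ifitm3 went from 799, 978, 1071 and 933 CPM to 403, 364 and 497 CPM (-1.17, SE 0.19, adjusted p = 0.00117).

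The other 3 were Isg20, Usp18 and Ifi35. Isg20 (ENSMUSG00000039236, chromosome 7, 78913424 to 78920396) fell from 84.9, 154, 164 and 171 CPM to 43.4, 41.9 and 50.6 CPM (-1.66, SE 0.30, adjusted p = 0.00284), which overlaps the lipid-laden microglia at 57.3, 23.1, 31.2 and 39.9 CPM. It was not called without number 718 (0.0715). Usp18 (ENSMUSG00000030107, chromosome 6, 121245906 to 121270917) fell from 219, 337, 269 and 362 CPM to 150.2, 116 and 141 CPM (-1.13, SE 0.28, adjusted p = 0.0199), also a range that overlaps lipid-laden microglia at 146, 83.2, 116 and 124 CPM. Its call was lost without MDM library 224 (adjusted p = 0.0522), MDM library 718 (0.0542), lipid-laden MDM library 224 (0.0875) or lipid-laden MDM library 718 (0.0685). Ifi35 (ENSMUSG00000010358, chromosome 11, 101448407 to 101458698) fell from 117, 130.1, 144 and 128 CPM to 81.96, 60.8 and 64.6 CPM (-0.91, SE 0.20, adjusted p = 0.0118). It was not called without lipid-laden MDM library 224 (0.0618) or 718 (0.0641).

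Several members that were higher in MDM than in microglia were not called here. Irf7 was at 184, 227 and 430.1 CPM in lipid-laden MDM, with library 718 far above the other 2 (log2 fold change -0.69, SE 0.27, adjusted p = 0.138). Without that library it passed the test (0.0225). Samhd1 was at 327, 258 and 225 CPM, below all MDM libraries (-1.02, SE 0.44, adjusted p = 0.176). Isg15 was at 50.01, 36.02 and 48.8 CPM (-0.66, adjusted p = 0.183), Irf9 at 181, 130.2 and 149 CPM (-0.45, adjusted p = 0.299), and Ifi44 at 17.7, 13.5 and 32.8 CPM (-1.08, adjusted p = 0.464). The 3 IFIT genes were at 158 ± 50.6 CPM for Ifit1, 254 ± 9.99 CPM for Ifit2 and 153 ± 24.8 CPM for Ifit3 (SD, n = 3), and none was called. Bst2 and Cmpk2 had log2 fold changes above 0, of 0.29 and 0.38, and did not pass.

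Markers moved with this comparison too. The summed microglia markers were at 7163 to 10246 CPM in lipid-laden MDM, above 2243 to 3871 CPM in MDM. The summed MDM markers were at 1561 to 1834 CPM in lipid-laden MDM, below 3545 to 4022 CPM in MDM. Conventional dendritic cell markers were at 187 to 248 CPM and 1232 to 2758 CPM in the same order. Ccr2, the receptor that draws monocytes into tissue, was at 959 ± 243 CPM in MDM (SD, n = 4) and 215 ± 65.3 CPM in lipid-laden MDM (SD, n = 3), against 3.699 ± 2.95 CPM in lipid-laden microglia (SD, n = 4). Neutrophil markers were at 170.1, 592 and 234 CPM in lipid-laden MDM libraries 221, 224 and 718. Of 7 tested, 2 were called higher than in MDM and 0 lower. Glioma and progenitor cell markers were at 76.5 to 174 CPM, with 4 of 10 called higher and 0 lower. Of the microglia markers 9 of 10 were called higher and 0 lower. Of the MDM markers 4 of 10 were called lower, of the conventional dendritic cell markers 6 of 10, and 0 higher in both. Over all genes 5.21% were called higher and 2.96% lower. The part of these markers' cells in the fall of the 7 genes was not tested.

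The effect of lipid load was tested for a difference between the origins, as the change in MDM minus the change in microglia. It was more negative in MDM for 5 members and more positive for 0, where 2.53% of all genes were called, 0.93% lower and 1.6% higher. The difference was below 0 for 30 of 37 members and above 0 for 7, against 54.8% of all genes above 0, with a median of -0.39 against 0.10. The 5 were Ifitm6 (difference of log2 fold changes -4.19, SE 0.64, adjusted p = 0.00388), Isg20 (-2.15, SE 0.40, adjusted p = 0.00918), Ifitm1 (-2.09, SE 0.48, adjusted p = 0.0293), Ifitm2 (-1.96, SE 0.49, adjusted p = 0.0437) and Ifitm3 (-1.16, SE 0.25, adjusted p = 0.0198). Ifitm6 was near the floor in microglia, at 0.818 to 1.24 CPM, and at 0.668 to 3.82 CPM with lipid load, highest in library 221. It had little room to fall there, so the size of its difference is uncertain. Usp18 (-1.41, SE 0.37, adjusted p = 0.0580) and Ifi35 (-1.02, SE 0.28, adjusted p = 0.0634) did not pass. With the replicate block both did, at an adjusted p of 0.0213 for Usp18 and 0.0310 for Ifi35, and so did Samhd1 (-1.2, adjusted p = 0.0249), although the numbers were not taken to pair MDM with and without lipid load. DESeq2 called Usp18 (0.00490) and Ifi35 (0.00878) as well. The 3 IFIT genes had differences of -1.33, -0.63 and -0.77, with their changes below 0 in MDM and above 0 in microglia, and were not called.

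This count moved with single libraries. It was 2 without lipid-laden MDM library 224, and 3 without lipid-laden MDM library 221 or 718, MDM library 224 or 431, lipid-laden microglial library 221 or 718, or microglial library 718. Ifitm6 and Isg20 passed whichever single library was left out. Ifitm3 was not called without lipid-laden MDM library 224 (adjusted p = 0.0662). Ifitm1 was not called without 9 of the 15 libraries taken singly, with an adjusted p of up to 0.0636 without microglial library 718, and Ifitm2 without 12, with up to 0.126 without lipid-laden MDM library 718. Without a whole number, 1 member was called without 224, 3 without 221, 4 without 431 and 0 without 718.

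The members moved together by library in the microglial groups, and single libraries stood out in the MDM groups as well. Both libraries 221 and 718 were above both 224 and 431 for 30 of 37 members in microglia (81.1%), against 18.8% of all genes tested. In lipid-laden microglia this held for 26 of 37 (70.3%, against 18.6%), and in MDM for 2 of 37 (5.41%, against 16.4%). Library 221 alone was the highest of its group for 24 members in microglia (64.9%, against 29.1% of all genes) and 26 in lipid-laden microglia (70.3%, against 29.2%). It was the lowest for 22 in MDM (59.5%, against 19.4%), where library 718 was the highest for 15 (40.5%, against 21.8%). In lipid-laden MDM library 224 was the lowest for 23 members (62.2%, against 29.4%). Library 718 was the highest there for 21 (56.8%, against 30.6%). The median deviation of the members from their group mean, on the scale log2(CPM + 0.5), was 0.54 for library 221 in microglia, 0.55 in lipid-laden microglia and -0.25 in MDM. For library 431 it was -0.40, -0.26 and -0.003 in the same groups. Ifit2 shows the pattern: libraries 221 and 718 were at the top of the microglial values (400.4, 72.5, 78.2 and 181 CPM) and of the lipid-laden ones (430.2, 123, 202 and 288 CPM), while in MDM 224 and 718 were (208, 376, 191 and 327 CPM). In lipid-laden MDM the 3 values of Ifit2 lay close together, at 258, 243 and 262 CPM. The pattern was noticed in the values and is a description without a test. Library 221 also had the lowest summed microglia markers of each group, 10310 CPM in microglia and 6977 CPM in lipid-laden microglia. Its summed endothelial cell markers were the highest of each group. They were at 169.7, 356.7, 190 and 155 CPM in microglia, lipid-laden microglia, MDM and lipid-laden MDM. The next highest libraries were at 89.3, 96.8, 113 and 65.8 CPM in the same order. The part of these markers in the pattern was not tested.

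**Figure D4:**
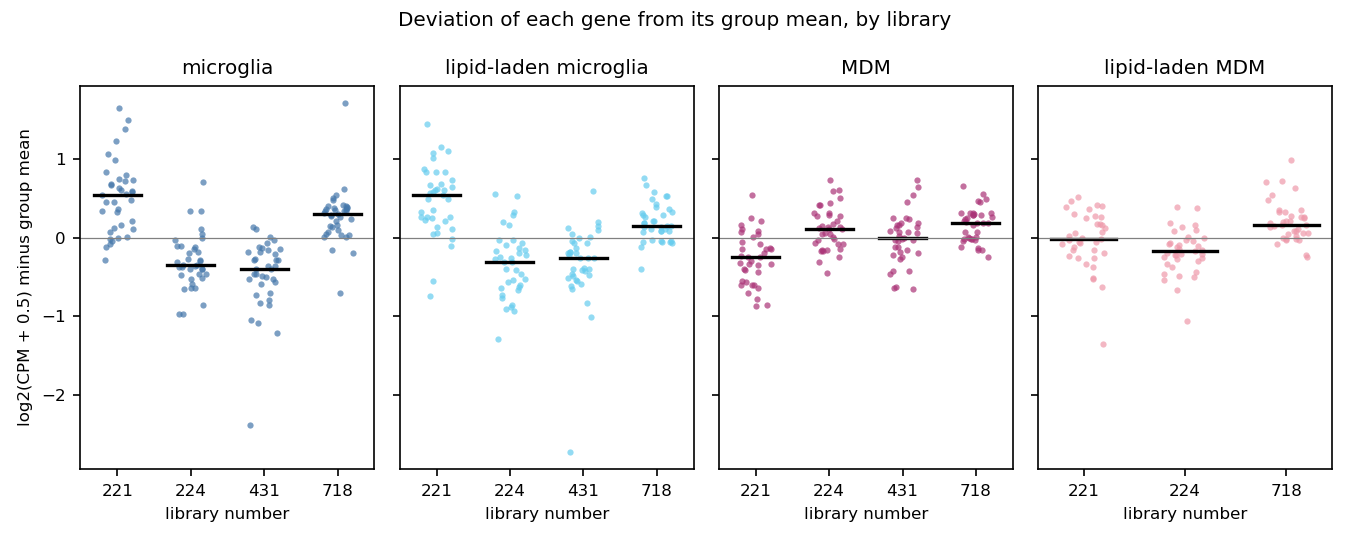
Deviation of each of the 37 genes (points) from its group mean, on the scale log2(CPM + 0.5), for each library by number, with the median as a line. In microglia and lipid-laden microglia the medians of libraries 221 and 718 are above 0 and those of 224 and 431 below, while in MDM that of library 221 is below 0.

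The spread within groups bears on what could be called. The highest library of a group exceeded the lowest by a median over the members of 2.17-fold in microglia, 2.07-fold in lipid-laden microglia, 1.64-fold in MDM and 1.45-fold among the 3 lipid-laden MDM libraries. It was widest in microglia for Oas3, at 26.7-fold.

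The pathway around the members was read from lists of other genes. Of 20 interferon ligand genes, 1 passed the filter on low counts, Ifnb1. It was at 10.03, 12.9, 3.04 and 9.74 CPM in microglia, 15.7, 9.91, 21.7 and 7.73 CPM in lipid-laden microglia, 0.816, 0, 3.25 and 0 CPM in MDM and 5.84, 0.108 and 0.850 CPM in lipid-laden MDM. MDM libraries 224 and 718 had no count, and the groups overlapped (-3.16 for MDM against microglia, SE 1.21, adjusted p = 0.0716). Ifng, the type II interferon, had 0 counts in both microglial groups, 54 over the 4 MDM libraries and 10 over the 3 lipid-laden ones. All 10 were in lipid-laden MDM library 224, and 27 of the 54 were in MDM library 431.

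Of 17 receptor and signalling genes, 8 were higher in MDM than in microglia and 1 lower, against 10.7% and 12.5% of all genes. The 4 with the smallest p were Jak2, a kinase that serves the type II receptor and many cytokine receptors, at 24.8 ± 3.29 CPM in microglia and 230.1 ± 45.02 CPM in MDM (3.21, SE 0.22, adjusted p = 1.82e-07), Ifngr1 (1.02), Irf8, a factor of myeloid cell identity (-0.85), and Ptpn6 (0.51). Ifnar1 was called (0.86, SE 0.25, adjusted p = 0.0210), and Ifnar2 was not (0.43, SE 0.16, adjusted p = 0.0739). From MDM to lipid-laden MDM, Jak2 (-1.96), Ifngr1 (-0.76) and Socs1, a feedback inhibitor (-1.21), fell and Irf8 rose (0.61). The difference of the lipid load effect was called for Jak2 (-2.54, adjusted p = 0.00178). In lipid-laden microglia against other microglia no gene of the list was called, with 3 at an unadjusted p under 0.05, and between the lipid-laden groups 0 were called, or 1 with the replicate block.

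Of 16 tested genes of nucleic acid sensing upstream of interferon, 1 was higher in MDM than in microglia, the adaptor Myd88 (0.86), and 2 were lower, Tlr7, an endosomal sensor of single-stranded RNA (-1.72), and Aim2, a DNA sensor of the inflammasome (-1.07). These counts are near the shares of all genes, 10.7% higher and 12.5% lower. With lipid load in MDM, Tlr7 (1.35) and Mavs (0.93), the adaptor of RIG-I and MDA5, rose. For Tlr7 the difference of effects was called (1.32, adjusted p = 0.0272). Tlr7 thus stood lowest in MDM, at 41.7, 56.2, 41.8 and 41.5 CPM against 218, 125, 107 and 148 CPM in microglia and 126, 114 and 106 CPM in lipid-laden MDM.

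Among 61 tested interferon-stimulated genes outside the 37, 32 were higher in MDM than in microglia and 1 lower, against 10.7% and 12.5% of all genes, with a median of 0.73. Those with the smallest p were Ms4a4c (4.03), Slfn5 (2.28), Ifit1bl1 (3.30) and Ifi205 (5.14), and the lower one was Lgals3bp (-0.81). With lipid load in both, 8 were higher in MDM and 0 lower, against 2.2% and 0.579% of all genes, led by Ms4a4c (2.86), Sp100 (1.16), Slfn5 (1.32) and Slfn1 (2.86). From MDM to lipid-laden MDM 6 fell, against 2.96% of all genes, among them Ifit1bl1 (-2.49), Ifi30 (-0.65) and Phf11b (-0.79), and Lgals3bp rose (0.90). In microglia with lipid load 0 of 61 were called, with 1 at an unadjusted p under 0.05. The difference of effects was called lower for 3, Ifit1bl1 (-3.03, adjusted p = 0.00821), Ifi30 (-0.77, adjusted p = 0.0315) and Ifi205 (-3.60, adjusted p = 0.0342), against 0.93% of all genes.

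Of 27 targets typical of type II interferon, 22 had a log2 fold change above 0 for MDM against microglia, against 43.8% of all genes. Their median was 0.71, against -0.12. Called by edgeR, 4 were higher in MDM and 1 lower, against 10.7% and 12.5% of all genes. The 4 were Ciita, the switch of MHC class II genes (5.61), the immunoproteasome subunits Psmb8 (1.13) and Psmb9 (1.21), and the peptide transporter Tap2 (0.98). The chemokine Cxcl10 was the 1 lower gene, at 279, 258, 297 and 392 CPM in microglia and 138, 196, 158 and 186 CPM in MDM (-0.85, SE 0.16, adjusted p = 0.00134). In the other comparisons none of the 27 was called by edgeR without the block, and 1 was lower between the lipid-laden groups with it. At an unadjusted p under 0.05 there were 3 between the lipid-laden groups, 0 in microglia, 4 in MDM and 0 for the difference. Log2 fold changes above 0 numbered 21, 6, 6 and 12 of 27 in the same order, against 47.5%, 47.6%, 52.2% and 54.8% of all genes.

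By edgeR without the block, 15 of the 37 members were called in at least 1 comparison and 22 in none. The 15 were those called for MDM against microglia, where 23.2% of all genes were called. The share of all genes called in at least 1 comparison was not counted. The 22, some of which passed with the block or with DESeq2, were Stat2, Ifit1, Ifit2, Ifit3, Oasl2, Oas2, Oas3, Mx1, Mx2, Rsad2, Cmpk2, Bst2, Ddx58, Ifih1, Dhx58, Ifi204, Eif2ak2, Adar, Rtp4, Xaf1, Ifi27l2a and Parp14. A p that missed the threshold does not show that these genes were alike between groups.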

How the data were processed

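The authors deposited raw counts of reads for each gene in 15 libraries, without normalization, per the file headers. RNA from sorted cells was primed with oligo-dT and amplified by template switching, per the labels' protocols. Reads had been placed on mm10, per the submitters' processing notes. No source used here names the aligner, the counting program or the strand setting, so overlapping genes and close paralogues may share reads. Groups came from the sample titles.

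Counts were tested with edgeR 4.0.16 under R 4.3.3. The quasi-likelihood test used TMM scaling on all 15 libraries, 1 coefficient per group and Benjamini-Hochberg adjustment over 14843 of 55486 genes kept by filterByExpr (minimum count 10, minimum total 15). Genes with an adjusted p under 0.05 were called. CPM are on TMM-scaled library sizes, and each SE is the size of the log2 fold change divided by the root of F. Exon lengths came from GENCODE M21. DESeq2 1.42.0, other scaling, no filter, a replicate block, fits of the compared groups alone and left-out libraries were alternatives. The procedure was tested on simulated data with independent libraries, 1 spread for all genes and changes in MDM only. That test does not bear on shifts that many genes of a library share. No 2 libraries of a group agreed within sampling noise (chi-square over its degrees of freedom at least 18.6).

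Deviations from group means correlated for every same-numbered pair above 0.1 in lipid-laden against other microglia (r = 0.131 to 0.282) and in the lipid-laden groups (0.112 to 0.186), not in MDM against microglia (0.0197 to 0.169) or lipid-laden against other MDM (0.0354 to 0.151). So the numbers were taken to pair the first 2 only, from the data and not from a label. The bound of 0.1 is a choice. The same numbers run over all 4 groups, and r was above 0 for every same-numbered pair. For pairs of differing numbers r reached at most 0.0357 in MDM against microglia and 0.0794 in lipid-laden against other MDM. Pairing of the MDM libraries is thus not excluded. The main fit had no block in any comparison, and counts with the block are given below.

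All 37 members were accounted for. Called members were named in each comparison, or the 3 with the smallest p where none was called. Library values were given for members called with or without the block and for the highest of each role per kilobase. Of the other pathway lists, up to 4 called genes with the smallest p were named, plus Ifnar1, Ifnar2, Ifnb1, Ifng, Cxcl10 and Irf8. Another gene that the rule names is not reported here. The members and lists were chosen with earlier results of these data known.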

Additional observations from a re-analysis of the deposited data

Results flagged for a closer look

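A single library stood apart from the other 3 of its group in 5 of 111 groups examined (Dixon's criterion, which chance meets in about 5 percent of groups). Mx1 was at 29.0 CPM in lipid-laden microglial library 221, against 48.0 to 49.7 CPM in the others. Ifitm2 was low in library 431 of both microglial groups, at 2.69 CPM against 7.75 to 8.22 CPM without lipid load and at 4.94 CPM against 8.13 to 8.64 CPM with it. Ifi204 was at 123 CPM in MDM library 431, against 214 to 231 CPM in the other MDM libraries. Samhd1 was at 253 CPM in microglial library 221, against 80.3 to 107.7 CPM.

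The effect of lipid load differed between the origins by the edgeR test of the difference itself for 5 genes, as described above. The differences, MDM minus microglia, were -2.09 for Ifitm1, -1.96 for Ifitm2, -1.16 for Ifitm3, -4.19 for Ifitm6 and -2.15 for Isg20 on the log2 scale.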

How the results depend on the processing

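Alternative runs were followed for 47 gene results. These were, in each comparison, the members called with or without the block, or the 3 with the smallest p where none was called. None of these turned its direction. Of 832 values, 719 stayed on their side of the threshold, 42 passed it newly and 71 no longer passed it. The directions of other members, many with small fold changes, were not followed. The count of members called for MDM against microglia, 15, stayed within 1.5 times under each planned setting: 15 with DESeq2 size factors, 16 without a filter, 21 with the replicate block, 18 with DESeq2, 17 with the compared groups alone (16 higher, 1 lower), 13 to 21 without 1 library and 10 to 22 without 1 number. For lipid-laden MDM against lipid-laden microglia, 2 members became 6 with the replicate block, 6 with DESeq2, 1 with the compared groups alone and 4 without replicate 221, and stayed 2 without any single library. Lipid-laden against other microglia gave 0 throughout, except 2 with DESeq2. For lipid-laden against other MDM, 7 became 9 with the replicate block, 4 without replicate 224 and 3 without replicate 718, with 5 to 8 without 1 library. For the difference of effects, 5 became 8 with the replicate block, 1 without replicate 224, 3 without replicate 221 and 0 without replicate 718, with 2 to 6 without 1 library. The block changed no call of lipid-laden against other microglia. In MDM against microglia, where the numbers were not taken to pair libraries, the replicate block also called Ifit1 (adjusted p = 0.0163), Oasl2 (0.00975), Oas3 (0.0356), Rtp4 (0.0144), Xaf1 (0.00935) and Ifih1 (0.0270), and called Ifnb1 lower (-4.47, adjusted p = 0.0265). DESeq2 also called Oasl2 (0.0268) and Oas3 (0.0155) there. Of the 27 type II interferon targets the block called 13 higher and 1 lower in MDM against microglia, 4 lower in lipid-laden against other MDM and 3 lower for the difference of effects.

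Counts over all genes moved by more than 1.5 times in some settings. For lipid-laden MDM against lipid-laden microglia, 413 genes became 798 with DESeq2 and 176 with the compared groups alone. For lipid-laden against other microglia 0 became 169 with DESeq2, 119 with the block and 17 without a filter. For lipid-laden against other MDM 1213 became 1955 with DESeq2, and for the difference 375 became 964 with DESeq2 and 657 with the block. Where numbers were not taken to pair libraries, each library correlated best with its own number in 7 of 8 cases (MDM against microglia) and 5 of 6 (lipid-laden against other MDM), a hint from the data only. Depth limits mainly genes of few counts, such as Ifitm6 and Ifi44 in microglia.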
